A study of Bos taurus with 6 samples.

Results

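The gene ZEB1 gave 7 of the 14274 circular RNAs (circRNAs) listed for subcutaneous fat of Qinchuan cattle. A circRNA is a closed RNA ring made when a splice site joins one that lies upstream of it, and it is counted by reads across that back-splice junction. Members were all circRNAs whose deposited gene name contains ZEB1, and each of the 7 was annotated to ZEB1 (ENSBTAG00000020053) alone. The gene was chosen by its junction reads in these same libraries, because its most abundant circRNA was already known to be among the highest and to be lower in adults. Junction reads of ZEB1 by age, and the shares and ratios that hold them, are therefore given as a description, with no p-value. Where a call on them is named, it is no support. The libraries came from subcutaneous fat of calves of 6 months and adults of 24 months, 3 libraries per age, with no treatment or genotype named in the labels. The labels do not say whether each library is a separate animal, so p-values measure only the spread between these samples.

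ZEB1 is a DNA-binding repressor with zinc fingers at both ends of the protein. It binds E-box motifs, recruits corepressors such as CTBP, and is best known for repressing the epithelial cadherin gene CDH1 during epithelial-mesenchymal transition, downstream of TGF-beta signals. ZEB1 is also made in mesenchymal cells, and in fat cell precursors it has been described as part of the gene network of fat cell formation. These sentences are background about the protein-coding transcript, and the values that follow concern circular products of the gene.

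The libraries held 35616 to 47298 junction reads, and 4417 to 5580 circRNAs were read in each. CircRNAs of the adipocyte marker genes were found for 9 of 19 listed genes, with PPARG and CD36 read in every library, while LEP, FABP4, CIDEC and FASN had none. Epithelial markers had 0 reads for 6 of 6 genes. Reads of skeletal muscle markers, mostly NEB and MYH7, numbered 297 in adult 2 and 0 to 3 elsewhere. Immune markers had 460 in adult 3, of which 457 were from the macrophage receptor gene ADGRE1.

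All 7 circles lay on the minus strand of chromosome 13, so the higher coordinate is the upstream end. Coordinates, exon numbers and intron numbers are those of the deposited annotation, with a genome build not given in the sources used here. In it exon numbers rise along transcription while intron numbers fall, so intron 8 is the intron directly upstream of exon 2. Called the intronic circle here, novel_circ_0002062 spanned 34195149 to 34208869, which is 13720 bases inside intron 8. This intron (34115099 to 34261243) is 146144 bases long, and the circle took up 9.39% of it, starting 52374 bases into the intron and ending 80050 bases before exon 2. No exon is listed at either end of the circle. The second circle, novel_circ_0002061, ran from the same upstream end at 34208869 to the downstream edge of exon 2 at 34114898. It is called the exon 2 circle here. Its span of 93971 bases contained the whole intronic circle and was the 7th longest of the 14274, whose median was 5335 bases and whose longest was 99406.

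The other 5 circles did not use the end at 34208869. A pair of them, novel_circ_0002058 (34075709 to 34115099) and novel_circ_0002059 (34088238 to 34115099), began at the upstream edge of exon 2 and ran on through exon 4. The shorter one stopped at the downstream edge of exon 4. The longer one continued past exon 5, to an end shared with novel_circ_0002057 (34075709 to 34088400). The circle novel_circ_0002056 (34066102 to 34067913) was exon 7 alone and the only one made of exon only. The circle novel_circ_0002060 (34114898 to 34120823) held exon 2 and the last part of intron 8 before it. Lengths of the mature circles are not known, because the deposited spliced length equals the whole span for 4 circles and is shorter by only 63, 106 and 169 bases for the other 3, with introns counted in.

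**Figure D1:**
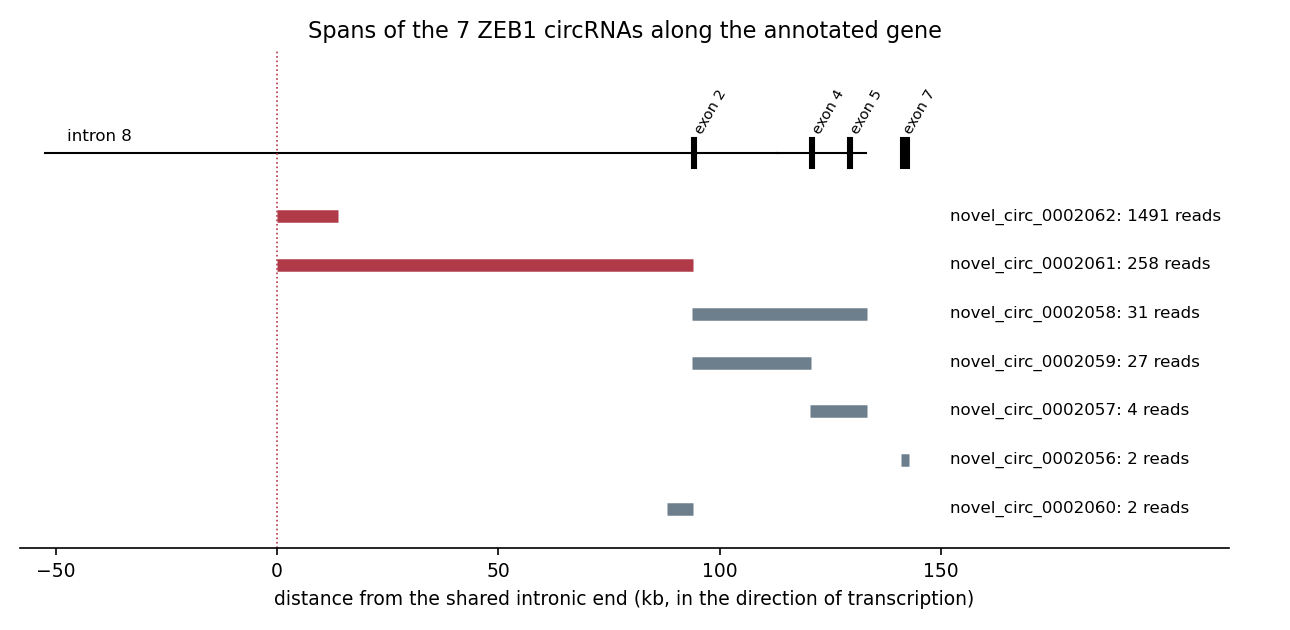
Spans of the 7 ZEB1 circles, drawn against distance in kb from the upstream end that the intronic circle and the exon 2 circle share, with transcription running to the right. Black boxes are annotated exons, narrow ones widened to be visible, and lines are introns. Red bars share the intronic end and hold 1491 and 258 of the junction reads, and grey bars hold 2 to 31 each.

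The intronic circle carried most of the gene's circular output. Of 1815 ZEB1 junction reads over the 6 libraries, 1491 (82.1%) were from the intronic circle, 258 (14.2%) from the exon 2 circle and 66 (3.64%) from the other 5. A junction read count refers to a single splice point, so these levels need no correction for length. By junction reads the intronic circle ranked 8th of the 14274 circRNAs and the exon 2 circle 120th. ZEB1 as a whole ranked 5th among 4700 host genes. Among 239 host genes with at least 5 circles and 100 reads, the top circle held a median of 53.2% of the gene's reads (quartiles 40.1% and 72.5%). In 45 of those 239 genes the top circle was intronic, as in ZEB1.

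Within the class of 3448 intronic circRNAs, the median was 3 reads per circRNA over all libraries, and the ZEB1 circle was the 2nd most abundant. Above it stood an intronic circle of MORC3, a chromatin-associated ATPase gene, with 1614 reads. The next, of the chromatin remodeller gene SMARCA5, had 698. The ZEB1 circle alone held 3.58% of all intronic junction reads. Sharing an end with an exon-holding circRNA, as the ZEB1 circle does, was found for 534 of the 3448 intronic circRNAs (15.5%), and for 15 of the 60 with at least 100 reads.

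Calf libraries 1, 2 and 3 held 302, 369 and 358 junction reads of the intronic circle, and the adult libraries held 126, 174 and 162. Scaled to counts per 1000000 junction reads of the library (CPM), the calf values were 8114, 9325 and 10052 and the adult values 3321, 3679 and 4053. Every adult library lay below every calf library, and the 9 ratios of a calf to an adult library ran up to 3.03. The calf mean was 9164 ± 979 CPM and the adult mean 3684 ± 366 CPM (SD, n = 3 each), a ratio of 2.49. In the edgeR fit over 663 circRNAs, the log2 change, adult minus calf, was -1.23 ± 0.23 (SE). The intronic circle of MORC3 did not have this order, with 236, 244 and 192 reads among calves and 309, 334 and 299 among adults. Of the 118 intronic circRNAs in the fit, 9 were called lower in adults and 11 higher, and their median log2 change was 0.12.

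For the exon 2 circle the calf counts were 70, 47 and 56 and the adult counts 21, 29 and 35, or 1881, 1188 and 1572 CPM against 553, 613 and 876 CPM. Its groups did not overlap either. Both tested ZEB1 circles thus had every adult library below every calf library, an order that 22.6% of the 663 tested circRNAs showed. The calf mean of the exon 2 circle was 1547 ± 347 CPM and the adult mean 681 ± 171 CPM (SD, n = 3 each), a ratio of 2.27, with a log2 change of -1.10 ± 0.30 (SE). The difference between the log2 changes of the 2 circles was smaller than the standard error of either. In that fit both circles were called lower in adults (edgeR, adjusted p under 0.05), where 10.4% of the 663 tested circRNAs were lower, 8.6% higher and 19.0% called in either direction. Because this contrast chose the gene, nothing is read from that count. Refits of the same contrast add no support either, and their calls show only how a call depends on the settings. The intronic circle was called in all 14 fits run. The exon 2 circle lost its call in 6 of 13 alternatives: with DESeq2, with the replicate number as a block, with no filter on low counts, and without calf 1, adult 1 or adult 2. Fewer cells that make these circles and fewer circles per cell cannot be told apart in bulk tissue.

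Reads at the shared upstream end divided between both downstream partners in overlapping proportions at the 2 ages. The exon 2 circle took 18.8%, 11.3% and 13.5% of them in the calf libraries and 14.3%, 14.3% and 17.8% in the adult libraries. The means were 14.5 ± 3.86% and 15.4 ± 2.01% (SD, n = 3 each), a difference smaller than the spread among calves. Exact binomial 95% intervals, which cover counting error only, ran from 15.0% to 23.2% in calf 1 and from 12.7% to 23.8% in adult 3. In calf 2 the interval was 8.42% to 14.7%, which did not overlap that of calf 1.

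**Figure D2:**
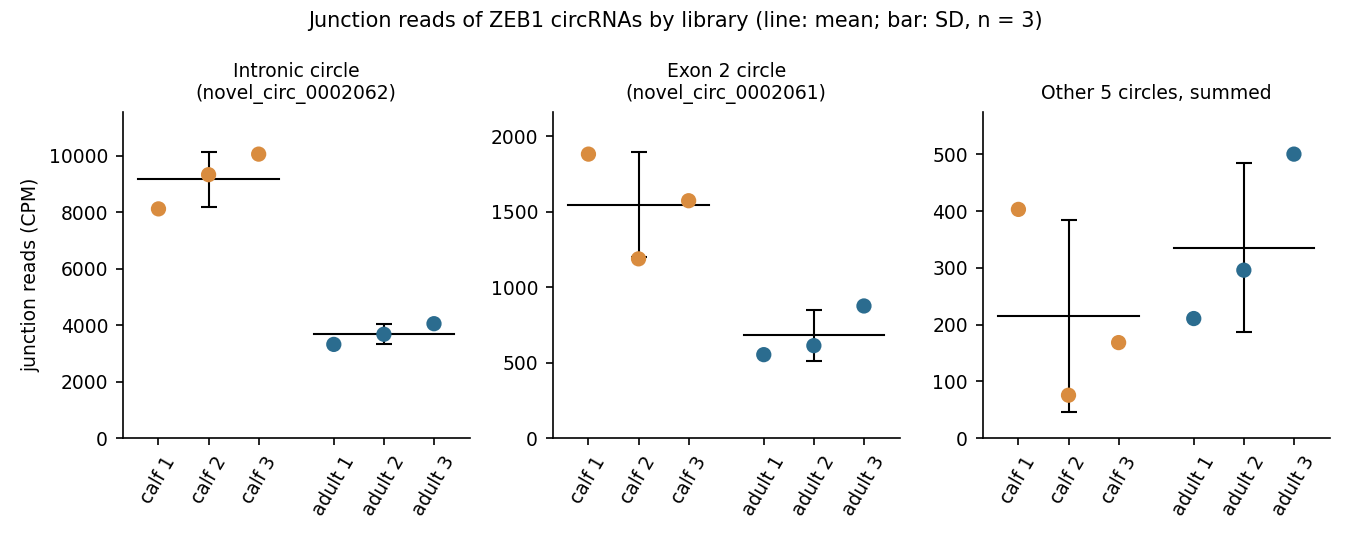
Junction reads in CPM (y axis, starting at 0, a different scale in each panel) for each library, for the intronic circle, the exon 2 circle and the other 5 circles summed. Points are libraries, lines are means of 3 libraries and bars are SD. In the first 2 panels every adult point lies below every calf point, and in the third the groups overlap.

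The circles that did not use the intronic end were rare and did not follow this order. Their summed reads were 15, 3 and 6 by calf library and 8, 14 and 20 by adult library, which is 403, 75.8 and 168 CPM against 211, 296 and 500 CPM. The ages overlapped, since calf 1 lay above adults 1 and 2. The calf mean was 216 ± 169 CPM and the adult mean 336 ± 149 CPM (SD, n = 3 each). Among them, novel_circ_0002058 had 8, 0 and 0 reads in calves and 6, 9 and 8 in adults, and novel_circ_0002059 had 7, 3 and 6 in calves and 0, 5 and 6 in adults. The remaining 3 were each read in 1 adult library, with 4 reads for novel_circ_0002057 and 2 for novel_circ_0002056 in adult 3, and 2 for novel_circ_0002060 in adult 1. None of the 5 passed the filter on low counts. A true count of 0 allows up to 3 reads, or 63.4 to 84.2 CPM depending on the library. The smallest nonzero count deposited was 2, so a 0 may stand for 1 read and this bound may be too low. Single rare circles were thus not tested between ages in the main fit, and their few reads leave such differences undecided.

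As a share of ZEB1 junction reads, the other 5 circles took 2.01 ± 1.66% in calves and 6.94 ± 2.07% in adults (SD, n = 3 each), and the intronic end took the rest. By library they took 3.88%, 0.716% and 1.43% in calves and 5.16%, 6.45% and 9.22% in adults. Most of each total was the intronic circle, whose lower level in adults chose the gene. A higher remainder in adults is therefore no separate result. Every adult share lay above every calf share. The exact 95% interval of calf 1 (2.19% to 6.31%) overlapped that of adult 1 (2.25% to 9.92%). That of calf 3 (0.526% to 3.08%) overlapped adult 1 alone, and that of calf 2 (0.148% to 2.08%) lay below every adult interval. For the intronic circle alone the share was 78.0%, 88.1% and 85.2% in calves and 81.3%, 80.2% and 74.7% in adults, and those ranges overlapped. The mean difference, adult minus calf, was -5.07 percentage points, and -0.90 when taken over the intronic and exon 2 circles alone. Summed over all 7 circles, ZEB1 stood at 10398, 10588 and 11792 CPM by calf library and 4085, 4588 and 5429 CPM by adult library, with a calf mean of 10926 ± 756 CPM and an adult mean of 4701 ± 679 CPM (SD, n = 3 each).

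Non-junction reads, which the deposited table gives for each circRNA in each library that read it, were not used to choose the gene. Their definition was not given in the sources used here, and the labels describe RNase R, which digests linear RNA, without saying which libraries received it. They are thus no direct measure of linear ZEB1 RNA. The intronic circle had 674, 558 and 583 non-junction reads in calves and 207, 797 and 839 in adults. The scale was 1000000 non-junction reads per library, over circRNAs read in all 6 and averaging 10 or more such reads. On that scale the intronic circle had 1242, 1231 and 1401 in calves and 621, 1266 and 1640 in adults. The calves sat close together, while adult 1 was below and adult 3 above all of them.

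These non-junction reads did not pass the test between ages. The log2 change, adult minus calf, was -0.20 ± 0.30 (SE; edgeR adjusted p = 0.793 over 1070 circRNAs). It turned to 0.08 ± 0.24 without adult 1 (edgeR adjusted p = 0.93), whose 333459 non-junction reads over circRNAs read in all 6 libraries were the fewest of any library. For the exon 2 circle the scaled values were 5072, 4369 and 5828 in calves and 2632, 5829 and 6845 in adults, with a log2 change of -0.07 ± 0.32 (SE; edgeR adjusted p = 0.944). That sign also turned without adult 1 (0.225), without calf 3 (0.072) and with total counts in place of TMM scaling (0.00401). So 0 of the 2 tested members passed in this measure, and 2.24% of the 1070 circRNAs did (0.841% higher and 1.4% lower in adults). Since the exon 2 circle contains the intronic one, reads may be common to both. A missed threshold with these errors does not show that the levels were alike.

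**Figure D3:**
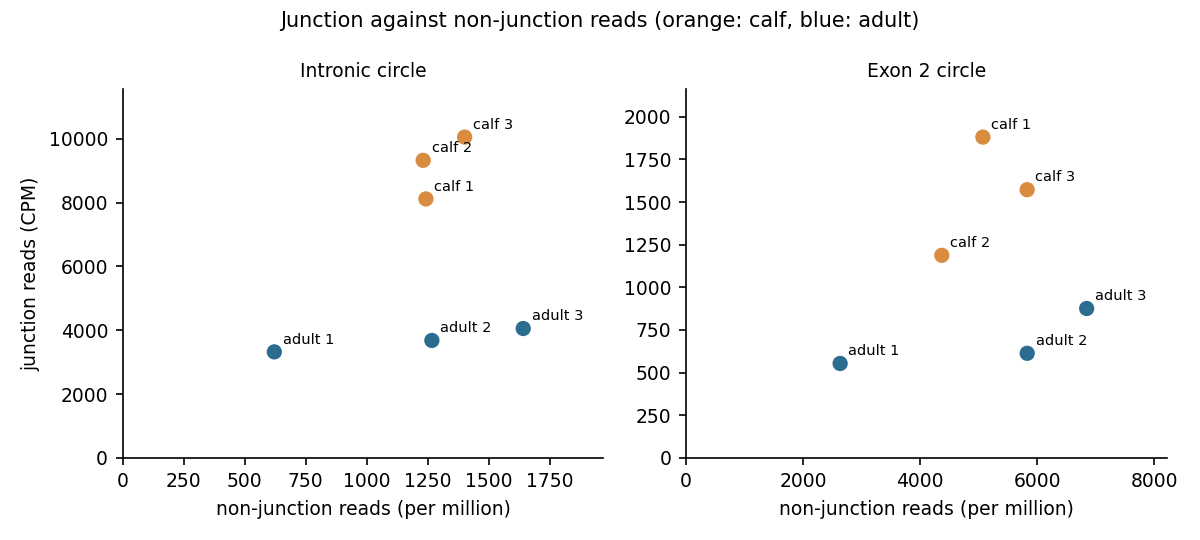
Junction reads in CPM (y axis) against non-junction reads per 1000000 (x axis) for the intronic circle and the exon 2 circle, both axes starting at 0. Each point is 1 library. For the intronic circle, adults 2 and 3 have 1266 and 1640 scaled non-junction reads, against 1231 to 1401 in calves, at no more than 4053 junction CPM, and adult 1 is low in both.

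Relative to its non-junction reads, the intronic circle had many more junction reads than the exon 2 circle in every library. For each 100 non-junction reads the intronic circle had 44.8, 66.1 and 61.4 junction reads in calves and 60.9, 21.8 and 19.3 in adults. The exon 2 circle had 2.54, 2.37 and 2.31 in calves and 2.39, 0.791 and 1.00 in adults. In both circles adult 1 fell among the calves, while adults 2 and 3 were lower than every calf. Other ZEB1 circles had 0.617 to 2.63 junction reads per 100 in the libraries that read them. The median over the 1070 circRNAs was 5.08 to 9.61 by library, with the highest in adult 1.

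Each library was therefore centred on its own median of the log2 ratio. On that scale the intronic circle stood at 3.14, 3.20 and 3.00 in calves and 2.67, 1.89 and 1.67 in adults, above the median circRNA in each library. The mean difference, adult minus calf, was -1.04 (calf 3.11 ± 0.10, adult 2.08 ± 0.52; SD, n = 3 each). For the exon 2 circle the difference was also -1.04 (calf -1.43 ± 0.39, adult -2.48 ± 0.46; SD, n = 3 each). Over all 1070 circRNAs the quartiles of this difference were -0.56 and 0.41. A lower difference was found for 10.6% of them than for the intronic circle, and for 10.4% than for the exon 2 circle. These ratios hold the junction reads whose age difference was known beforehand, so they are a description.

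Density of non-junction reads along the locus was higher within the intronic circle than in the rest of the exon 2 circle. Inside the 13720 bases of the intronic circle there were 40.7 to 49.1 reads per kb in calves and 15.1, 58.1 and 61.2 in adults. Taking the difference of the counts for the nested circles over the 80251 bases outside, the density was 17.7 to 25.9 per kb in calves and 8.35, 35.8 and 33.2 in adults. The inside density was 1.62 to 2.29 times the outside density over the 6 libraries, with means of 2.01 ± 0.24 in calves and 1.76 ± 0.12 in adults (SD, n = 3 each), and adult 1 was at 1.81. The highest adult, 1.84, lay just under the lowest calf, 1.85, and the ages were not tested in this measure. This subtraction assumes that non-junction reads were counted by position, which the sources used here do not state.

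Among genes tied to ZEB1 by function, few gave enough circRNA reads to test. A list of 72 genes covered other repressors of the E-box family, corepressors and chromatin partners, TGF-beta and BMP receptors, SMAD factors, cadherins, Hippo pathway factors, fat cell regulators and splicing factors of the epithelial-mesenchymal transition. Of these, 43 had at least 1 circRNA of their own and 29 had none, among them SNAI1, SNAI2, TWIST1, CTBP1, CTBP2, CDH1 and CDH2. ZEB2, the paralogue of ZEB1, had 5 reads in all. With junction reads summed per host gene, 9 were tested: 1 was lower in adults, 0 were higher and 8 did not pass (edgeR, adjusted over 719 host genes). Over all host genes 6.54% were lower, 5.84% higher and 12.4% passed in either direction. At an unadjusted p under 0.05, 2 of the 9 were higher, TGFBR2 and TGFBR3, and 1 was lower, PPARG, where 14.9% of the 719 host genes were higher and 13.2% lower. The median log2 change of the 9 was -0.32, against 0.01 over all 719. The list was drawn up with earlier results of these data known.

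The gene that passed was PPARG, the nuclear receptor gene that directs fat cell formation. Its 12 circRNAs had 51, 48 and 75 reads in calves and 27, 38 and 18 in adults. The log2 change was -1.17 ± 0.32 (SE; edgeR adjusted p = 0.0278). Without calf 3 it missed the threshold (edgeR adjusted p = 0.0905), as it did without adult 1 (0.076), adult 2 (0.0551) or adult 3 (0.061).

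On the receptor side, TGFBR2, which codes for the TGF-beta type II receptor, had 7, 13 and 29 reads in calves and 35, 52 and 37 in adults (log2 change 1.23 ± 0.42 SE, edgeR adjusted p = 0.0753). TGFBR3, the gene of the coreceptor betaglycan, had 8, 9 and 23 reads in calves and 16, 30 and 49 in adults (log2 change 1.14 ± 0.49 SE, edgeR adjusted p = 0.144). In both genes calf 3 was the highest calf. Both passed without calf 3 and with the replicate number as a block, and TGFBR2 also passed with limma-voom. They are named here after their values were seen.

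The other tested members did not pass. They were ACVR2A, an activin receptor gene, SMAD1 and SMAD4, which carry BMP and TGF-beta signals to the nucleus, KDM1A and NCOR1, of corepressor complexes, and QKI. QKI codes for an RNA-binding protein known to promote circRNA formation during epithelial-mesenchymal transition. Its circRNAs had 78, 128 and 97 reads in calves and 101, 82 and 68 in adults, so the ages overlapped (log2 change -0.34 ± 0.26 SE, edgeR adjusted p = 0.431). The log2 changes of the other 5 ran from -0.44 for SMAD1 to 0.13 for NCOR1.

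**Figure D4:**
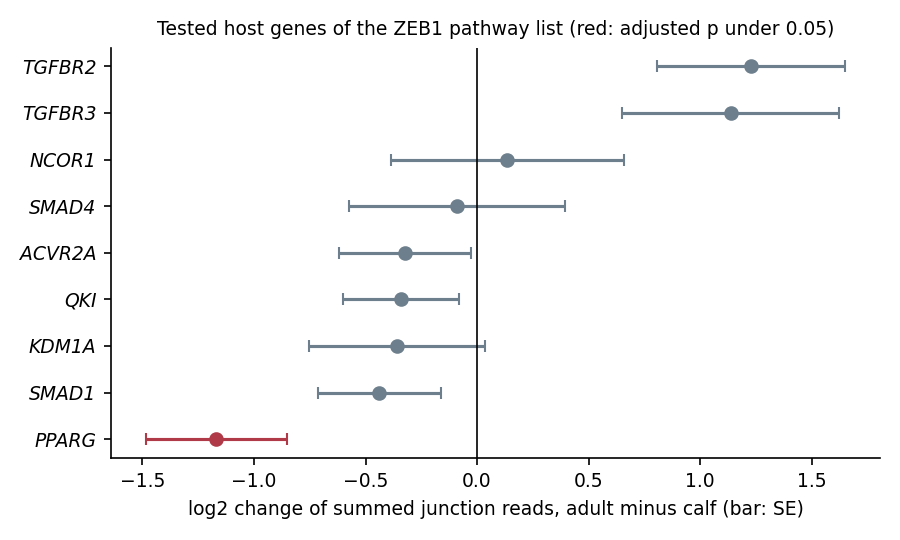
Log2 change, adult minus calf, of junction reads summed per host gene (x axis) for the 9 tested genes of the list (y axis). Points are edgeR estimates and bars are SE. PPARG, in red, is the gene that passed, at -1.17, and TGFBR2 and TGFBR3 lie to the right at 1.23 and 1.14.

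The circRNAs most like the intronic ZEB1 circle over the 6 libraries had the same order of the ages. Likeness was the Pearson correlation of log2(CPM + 10) over the 6 libraries, among 1081 other circRNAs read in every library and annotated to 1 gene. The closest was a circRNA of RNF216, a ubiquitin ligase gene (novel_circ_0007772, chromosome 25, 39188873 to 39198380; r = 0.989), with 57, 59 and 66 reads in calves and 26, 34 and 29 in adults. CTNNAL1, an alpha-catenin-like gene, followed (r = 0.986; 26, 25 and 24 reads in calves, 3, 4 and 4 in adults), then STAU1, which codes for a protein that binds double-stranded RNA (r = 0.981). The STAU1 circRNA had only 10 reads in each calf and 7, 9 and 8 in adults. AASS, of lysine breakdown, and FBXO11, an F-box gene of ubiquitin ligation, completed the 5 (r = 0.97 and 0.969). The AASS circRNA had 76, 110 and 69 reads in calves and 19, 20 and 27 in adults. The FBXO11 circRNA was also intronic (novel_circ_0001029, chromosome 11, 30017160 to 30018062), with 40, 44 and 41 reads in calves and 17, 18 and 15 in adults. The exon 2 circle of ZEB1 itself ranked 45th (r = 0.904). With 6 libraries in 2 ages these correlations rest mainly on the difference between the ages.

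Summed levels of several cell type marker lists also differed between the ages, each led by 1 or a few genes. Summed circRNA reads of the 9 adipocyte markers with reads were 4380 to 6065 CPM in calves and 3023 to 3637 CPM in adults, and 3 of the 4 tested (ACACA, PPARG and PDE3B) were lower in adults, where 6.54% of all tested host genes were. CD36, a fatty acid transporter gene, went the other way, at 914, 1263 and 1572 CPM by calf library and 2372, 1607 and 2627 CPM by adult library. It missed the threshold (log2 change 0.87 ± 0.27 SE, edgeR adjusted p = 0.0535). Fibroblast markers, 6 of 10 with reads, had 53.7 to 168 CPM in calves and 740 to 1080 CPM in adults, while PDGFRA, COL1A2, COL3A1 and LUM were at 0. Of the adult reads, 39, 22 and 24 were from VCAN and 2, 11 and 12 from COL6A3. VCAN, the 1 tested, had 2, 0 and 0 reads in calves and was called higher in adults (log2 change 5.11 ± 0.77 SE, edgeR adjusted p = 0.00191), where 5.84% of all tested host genes were. Endothelial markers, 8 of 9 with reads and CDH5 at 0, had 1112 to 1236 CPM in calves and 1526 to 1555 CPM in adults. Their members moved in different directions. VWF had 0 reads in every calf and 10, 18 and 2 in adults. FLT1, a VEGF receptor gene and the 1 tested, had 564, 581 and 477 CPM in calves and 369, 338 and 425 CPM in adults. It did not pass (log2 change -0.46 ± 0.33 SE, edgeR adjusted p = 0.405). Pericyte and smooth muscle markers, 4 of 6 with reads, had at most 56.2 CPM in calves and 52.7 to 254 CPM in adults. Immune markers, 4 of 10 with reads and PTPRC at 0, had 53.7 to 562 CPM in calves and 1212 to 11509 CPM in adults. This was ADGRE1 almost alone, with 2, 9 and 16 reads in calves and 44, 72 and 457 in adults, since the other immune markers summed to 0, 2 and 4 reads in calves and 2, 2 and 3 in adults. ADGRE1, the 1 tested, was also called higher in adults (log2 change 4.30 ± 0.87 SE, edgeR adjusted p = 0.00582). Skeletal muscle markers reached 6279 CPM in adult 2 and at most 80.6 CPM elsewhere, and 1 of 7 nerve markers had reads, in calf 2. The intronic circle was at 3679 CPM in adult 2, between adults 1 and 3. The part of these marker lists in the ZEB1 difference was not tested.

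In the authors' deposited table of the ages, the intronic circle was 1 of 48 circRNAs listed as lower in adults, with group means of 345 scaled reads in calves and 146 in adults and a log2 fold change of -1.23. The exon 2 circle and the other 5 ZEB1 circles are not listed there as changed. The authors' deposited gene ontology table names ZEB1 in 260 of 1682 terms, 0 of which had a corrected p under 0.05 in that table. The smallest corrected p in the authors' deposited table among them was 0.503, for regulation of mesenchymal cell proliferation, with 3 of 58 host genes.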

How the data were processed

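Members, gene lists and tests were chosen with earlier results of these data known. Per the submitters' processing notes, Trim Galore, TopHat2 2.0.14, TopHat and Cufflinks were used. CircRNA caller and genome build: not given in the sources used here. Deposited by the authors were junction read counts, in which a value of 1 occurs 0 times, and a column headed TPM that is CPM, without a length term. The deposited table of the ages holds group means (a scaled signal), log2 fold changes and p-values. Non-junction reads were taken from the deposited annotation for circRNAs read in all 6 libraries and averaging 10 or more.

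Counts were fitted with edgeR 4.0.16 by quasi-likelihood (R 4.3.3, filterByExpr for junction reads, TMM, Benjamini-Hochberg, threshold 0.05) over 663 circRNAs, 719 host genes or 1070 circRNAs with non-junction reads. A run on simulated data checked the code only. Its changes were larger than those of the ZEB1 circles and its dispersion was the same for every feature, so it does not give error rates for these data. Host sums used the 12150 circRNAs of 1 gene. Ratios used a pseudocount of 0.5. Library sizes were recomputed after filtering, a choice made after both ways had been seen. Alternatives were full library totals, DESeq2 1.42.0, limma-voom (limma 3.58.1), total counts, other filters, a replicate block and leaving out each library. Named were ZEB1 circles with 10 reads or 3 libraries in full, list genes past the threshold, and the 5 circRNAs most like the intronic circle. The remaining circles were named as well because they are few. Libraries of an age differed by more than sampling noise (chi-square per degree of freedom at least 2.05).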

Additional observations from a re-analysis of the deposited data

How the results depend on the processing

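The log2 change of junction reads kept its direction and moved by less than the spread between libraries in all 13 alternatives, for the intronic circle, for the exon 2 circle and for ZEB1 summed. Leaving out 1 library gave -1.33 to -1.14 for the intronic circle, -1.29 to -0.95 for the exon 2 circle and -1.24 to -1.04 for ZEB1 summed. The centred ratio of the intronic circle ranged from -1.32 to -0.83 in those fits, and its share of ZEB1 reads, -5.07 percentage points as adult minus calf, from -7.94 to -2.93 (-2.93 without calf 2, -3.04 without adult 3, -7.94 without calf 1); over the circles read in all 6 libraries, the intronic and exon 2 circles, it was -0.90. The non-junction change of the intronic circle (-0.20) ranged from -0.47 to 0.0795, reversed without adult replicate 1, and that of the exon 2 circle (-0.07) from -0.29 to 0.225, reversed without adult replicate 1 (0.225), without calf replicate 3 (0.072) and with total counts (0.00401); neither passed in any alternative. Calls in junction reads per circRNA numbered 126, 202 with no filter, 56 with the replicate block, and 71 (without calf 1) to 138 (without adult 3) when 1 library was left out, with 74 without calf 2, 82 without adult 1 and 81 without adult 2. The exon 2 circle was not called in 6 of the 13 alternatives. Taking full library totals, an alternative chosen after seeing the data, gave 129 circRNAs and 92 host genes. Calls in non-junction reads numbered 24, 62 with DESeq2, and 0 (without adult 2; 124 at an unadjusted p under 0.05) to 77 (without calf 3) when 1 library was left out: 6 without calf 1, 6 without calf 2, 10 without adult 1 and 12 without adult 3. Host gene calls numbered 89, and 55 (without calf 2) to 123 (without adult 3). Of the 9 list genes, 0 were higher with DESeq2, 1 with limma-voom and 0 to 2 when 1 library was left out, and 0 to 1 were lower. Calves and adults share replicate numbers, but deviations of same-numbered libraries correlated at -0.05, 0.10 and -0.01, so the numbers are not taken as pairs. With the replicate block 2 list genes were higher, non-junction calls numbered 18, host gene calls 101, the log2 change of the intronic circle was -1.23 in junction and -0.28 in non-junction reads, and ZEB1 summed was at -1.16. Depth limits the 5 rare circles, which had 66 reads in all.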
